A study of Mus musculus with 16 samples.

Results

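The genes described here were the nuclear-encoded subunits of the 5 oxidative phosphorylation complexes, with the assembly factors that carry the same name stems. They were taken by name, as every gene that begins with Nduf, Uqcr, Sdha, Sdhb, Sdhc, Sdhd, Cox4i, Cox5, Cox6, Cox7, Cox8 or Atp5, and kept where at least 10 reads fell on the gene in 3 or more libraries of a muscle. Of 24421 genes in the count tables, 96 carried such a name and 93 were kept, the same 93 in both muscles. They comprised 35 subunits of complex I, 4 of complex II, 8 of complex III, 17 of complex IV, 15 of complex V and 14 assembly factors or related genes. The 3 names that were not kept were Ndufs5, which was listed at 0 in every library, and Cox7b2 and Cox8c, which held 0 to 2 reads.

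RNA was sequenced from the gastrocnemius (Gas, a mostly fast-twitch muscle) and the soleus (Sol, a mostly slow-twitch muscle) of male C57BL/6 mice aged 8 weeks. WT mice carried the floxed Lsd1 allele without CreERT2 (3 Gas and 3 Sol libraries), and LSD1-mKO mice were Lsd1 flox/flox; Tg ACTA1-CreERT2/+ (5 Gas and 5 Sol libraries). The human ACTA1 promoter confines the recombinase to differentiating and differentiated muscle cells, so other cells of the tissue keep LSD1, a histone demethylase encoded by Kdm1a. Mice of both genotypes received tamoxifen (75 mg/kg for 5 days) and, starting on the fourth day of tamoxifen, dexamethasone, a synthetic glucocorticoid (1 mg/kg for 7 days), so that every value below comes from a dexamethasone-treated muscle. The comparisons were between genotypes within each muscle, between muscles within each genotype, and of the genotype difference between the muscles.

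Oxidative phosphorylation passes electrons from NADH through complex I, or from succinate through complex II, to ubiquinone, then through complex III and cytochrome c to complex IV, which reduces oxygen. Complexes I, III and IV pump protons across the inner mitochondrial membrane, and complex V, the ATP synthase, uses the gradient to make ATP. Slow, oxidative fibers hold more mitochondria than fast, glycolytic ones, and several complex IV subunits exist as a muscle form and a form made in most tissues.

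Most of these transcripts are short. Their median length was 875 bases, against 3079 bases over all genes tested in Gas, and 57.0% of them were under 1000 bases, against 5.64% of all genes tested in Gas. Complex IV transcripts had a median of 618 bases, complex I 875 bases, and complex II, made of 4 larger subunits, 2066 bases. Length is given beside the results because libraries differed in the level of short transcripts.

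RefSeq promoter sequences (GRCm38.p6, 250 bases before to 50 after the transcript start) could be matched to 75 of the 93 genes. The 150 bases before the start are shown for Cox7a1 and Cox8b, the heart and skeletal muscle forms of 2 complex IV subunits, for Cox7a2 and Cox8a, their common forms, and for Cox6a1, the common partner of the muscle form Cox6a2, because the isoform shares described further on turn on these pairs. They lie at chr7:30184021-30184170 (Cox7a1, plus strand), chr9:79759854-79760003 (Cox7a2, minus strand), chr7:140900447-140900596 (Cox8b, minus strand), chr19:7217617-7217766 (Cox8a, minus strand) and chr5:115348959-115349108 (Cox6a1, minus strand). Capitals mark matches, on either strand, to the Sp1 box GGGCGG, the CCAAT box, the ETS motif CCGGAAG bound by GABP, the estrogen-related receptor element AAGGTCA, the inner part GCATGCGC of the NRF1 motif and the YY1 motif AAGATGGCG. ATTGG is CCAAT read on the other strand, and in Cox8b and Cox8a none of these letters was found in this stretch. In the whole window, to 50 bases after the start, Cox8a held the ETS motif and CCAAT, and Cox8b held none of the motifs.
Cox7a1: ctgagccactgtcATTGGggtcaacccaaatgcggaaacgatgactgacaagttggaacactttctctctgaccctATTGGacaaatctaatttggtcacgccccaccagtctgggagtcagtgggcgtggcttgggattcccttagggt
Cox7a2: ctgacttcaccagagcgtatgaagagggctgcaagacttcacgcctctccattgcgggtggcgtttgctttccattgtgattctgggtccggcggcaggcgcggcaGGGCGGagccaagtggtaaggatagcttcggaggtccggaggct
Cox8b: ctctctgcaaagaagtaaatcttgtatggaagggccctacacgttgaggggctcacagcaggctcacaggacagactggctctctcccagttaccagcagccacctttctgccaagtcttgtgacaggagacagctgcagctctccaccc
Cox8a: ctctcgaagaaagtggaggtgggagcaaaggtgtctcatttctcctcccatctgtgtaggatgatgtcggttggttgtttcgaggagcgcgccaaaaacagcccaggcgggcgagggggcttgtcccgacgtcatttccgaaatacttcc
Cox6a1: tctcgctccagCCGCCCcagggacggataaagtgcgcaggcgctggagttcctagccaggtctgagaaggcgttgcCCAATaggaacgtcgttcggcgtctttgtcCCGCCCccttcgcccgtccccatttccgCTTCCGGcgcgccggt

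These stretches held 52.0% G and C in Cox7a1, 55.3% in Cox8b and Cox8a, 60.7% in Cox7a2 and 66.0% in Cox6a1. Over the whole 300-base windows, on either strand, the NRF1 letters GCATGCGC were found in 12 of 75 promoters (16%, against 5.81% of 10426 genes with a RefSeq promoter), the YY1 letters in 7 (9.33% against 3.35%), the estrogen-related receptor letters in 7 (9.33% against 3.97%) and the ETS letters in 20 (26.7% against 18.7%). The Sp1 box was in 35 (46.7% against 67.7%) and CCAAT in 32 (42.7% against 42.3%). A match of letters is a description and not a site of binding.

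Libraries held 10130415 to 24576377 counted reads, of which these 93 genes took 2.59% to 5.50%. Kdm1a lay at 35.3 to 45.2 CPM (counts relative to library size, scaled by TMM within a muscle) in the WT libraries and at 9.6 to 16.6 in the LSD1-mKO libraries, so every library matched its label. The summed level of 6 fast-fiber markers was 77656 to 136358 CPM in Gas and 13362 to 35113 CPM in Sol, and that of 7 slow-fiber markers 2688 to 4475 CPM in Gas and 24229 to 43766 CPM in Sol. Summed markers of other cells were lower, at 99.5 to 693 CPM for adipocytes (4 genes), 618 to 2118 for fibroblasts (5 genes), 162 to 318 in Gas and 324 to 479 in Sol for endothelial cells (3 genes) and 26.8 to 249.7 for Schwann cells (3 genes). Blood cells (9 genes, of which 6 hemoglobin genes were listed at 0 in every library) gave 4.19 to 81.0 CPM, brown adipocytes (3 genes, Ucp1 at 0 outside LSD1-mKO Sol) 3.88 to 9.597 in Gas and 12.0 to 20.9 in Sol, and satellite cells (2 genes) 2.13 to 8.31. Libraries WT Gas 3, LSD1-mKO Gas 5 and WT Sol 2 had the highest level of 80 ribosomal protein genes in their muscle, at a mean log2 CPM of 8.09, 7.41 and 6.99, against 6.64 to 7.01 in the other Gas and 6.12 to 6.55 in the other Sol libraries. In bulk tissue, fewer cells of a type and less RNA per cell cannot be told apart.

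The same 3 libraries carried the highest levels of the oxidative phosphorylation genes. In WT Gas 3 the genes took 5.50% of reads and 78 of the 93 had their highest Gas level there; in LSD1-mKO Gas 5 they took 4.2%, with 12 at their highest, and in the other Gas libraries 2.59% to 3.28%. In WT Sol 2 they took 5.23% of reads, and 87 of the 93 had their highest Sol level there; in the other Sol libraries the share was 3.15% to 3.83%. Measured from each gene's mean log2 CPM over its muscle, members under 1000 bases lay 1.29 above in WT Gas 3, 0.56 above in LSD1-mKO Gas 5 and 0.81 above in WT Sol 2 (medians). All tested genes of that length lay 0.94, 0.41 and 0.52 above. The members of 1500 bases or more were also high in these libraries, by 0.43, 0.28 and 0.46, whereas all tested genes of that length lay 0.12, 0.05 and 0.05 below their means. Counts and medians over the set are therefore also given below without these libraries.

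Levels of the complexes were compared per length, as reads per kilobase of transcript scaled to the same total over all genes in every library (TPM, computed here from the counts). On this scale and over the 16 libraries, the highest subunit of complex I was Ndufb9, an accessory subunit, with a mean of 1632. For complex II it was Sdhb, the iron-sulfur subunit (1260), for complex III Uqcrh, the hinge protein (1328), for complex IV Cox6a2, the muscle form of subunit VIa (3696), and for complex V Atp5b, the catalytic beta subunit (3938). Near the other end stood Cox6b2, a testis form (2.04), and Cox4i2, a lung form of subunit IV (7.42).

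Complex II was the only complex whose level did not overlap between the muscles in either genotype. Its 4 subunits summed to 2032, 2192 and 2207 TPM in WT Gas and to 2235, 2249, 2064, 2074 and 2261 in LSD1-mKO Gas. They summed to 3797, 3666 and 3710 TPM in WT Sol and to 3028, 3213, 2883, 3103 and 3186 in LSD1-mKO Sol. Every Sol library lay above every Gas library, with a difference of the mean log2 levels of 0.80 in WT and 0.50 in LSD1-mKO. Every LSD1-mKO Sol library lay below every WT Sol library (difference of the mean log2 levels -0.27). Without WT Sol 2 the Sol genotype difference was as large, at -0.29, and without all 3 libraries the muscle differences were 0.83 in WT and 0.52 in LSD1-mKO. When the same reads per kilobase were scaled by the TMM factors, the muscle differences were 0.31 in WT and 0.30 in LSD1-mKO and their groups overlapped, while in Sol the genotypes still did not overlap.

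The other complexes varied more between replicates. Complex I summed to 25114 ± 7157 TPM in WT Gas (SD, n = 3), 20321 ± 3444 in LSD1-mKO Gas (n = 5), 24598 ± 4506 in WT Sol (n = 3) and 19917 ± 971 in LSD1-mKO Sol (n = 5). Complex IV summed to 24370 ± 7065 TPM in WT Gas, 20283 ± 3585 in LSD1-mKO Gas, 25310 ± 6047 in WT Sol and 19673 ± 1589 in LSD1-mKO Sol. The WT standard deviations are wide because of WT Gas 3 (33374 TPM for complex I, against 20744 and 21224 in the other WT Gas libraries) and WT Sol 2 (29720 TPM, against 22827 and 21246). Complex III was at 9606 ± 1285 TPM in WT Sol and 7608 ± 437 in LSD1-mKO Sol, and complex V at 25340 ± 2400 and 21087 ± 986. In Sol, the genotypes did not overlap for complexes I, II, III and V and for the assembly factors, and they overlapped for complex IV. The differences of the mean log2 levels, LSD1-mKO minus WT, were -0.29 for complex I, -0.33 for complex III, -0.34 for complex IV and -0.26 for complex V. Without WT Sol 2 they were -0.15, -0.23, -0.16 and -0.19. Scaled by the TMM factors, complex II was the only one whose Sol genotypes did not overlap. In Gas, the genotypes overlapped for every complex, with such differences of -0.28 to 0.02, and of -0.15 to 0.03 without WT Gas 3 and LSD1-mKO Gas 5. These sums are a description, with no test.

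**Figure D1:**
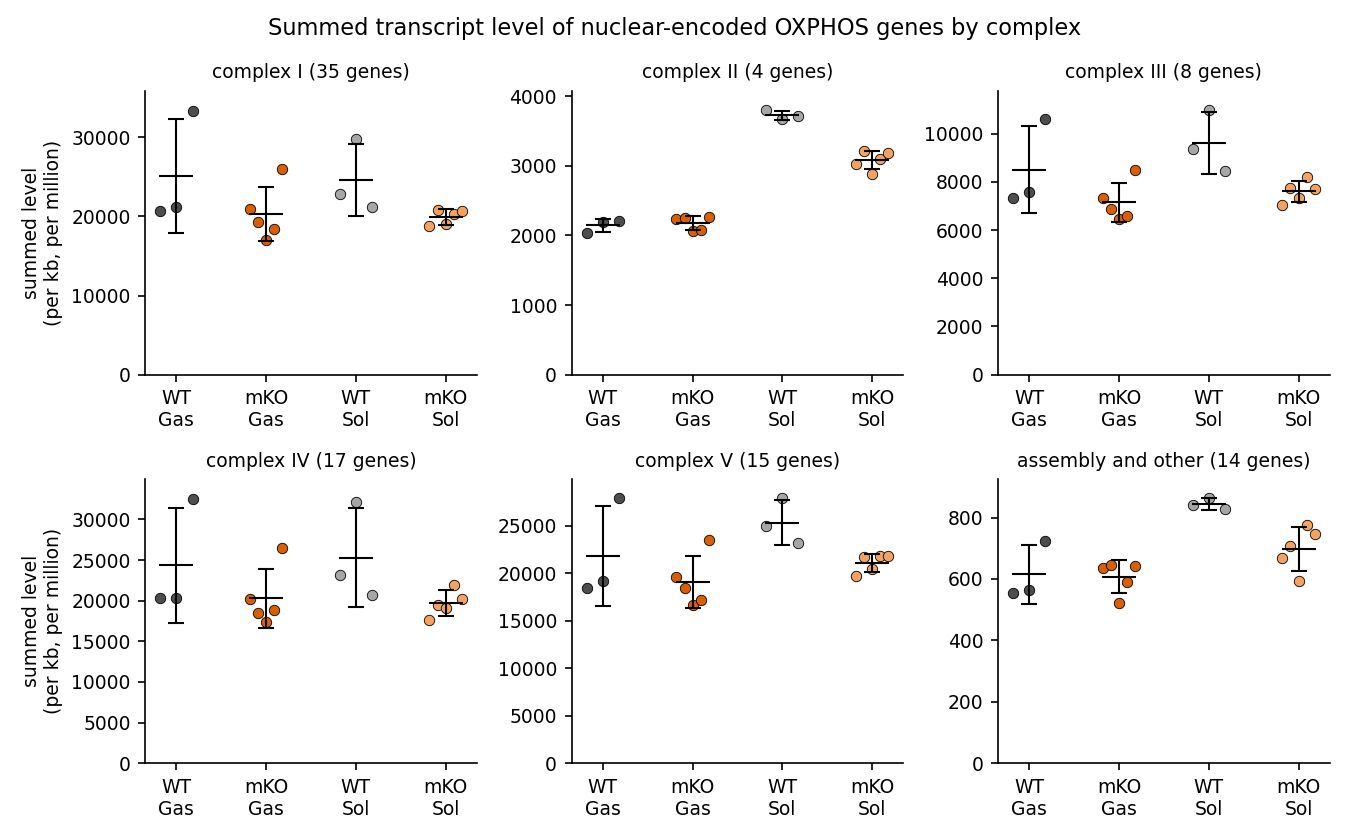
Summed level (TPM, computed here from the counts) of the members of each complex in the 16 libraries, with the mean and SD of each group. Complex II stands higher in Sol (2883 to 3797) than in Gas (2032 to 2261) in every library, and WT Gas 3 and WT Sol 2 stand high for complexes I, III, IV and V.

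The first question was whether depletion of LSD1 in the muscle fibers changed the expression of these genes in Gas. No member passed the test (edgeR quasi-likelihood, Benjamini-Hochberg adjusted p under 0.05 over 13040 genes), where 4 genes (0.0307%) did; the smallest adjusted p was 0.525. The estimates leaned to lower levels in LSD1-mKO: of 92 members tested (Cox6b2 was too low to test), 86 had a log2 fold change below 0, with a median of -0.60 and a range of -1.23 to 0.23, against a median of 0.01 over all genes tested. At an unadjusted p under 0.05, 5 members (5.43%) were lower and none was higher, against 4.31% of all genes lower. No member had Gas groups that did not overlap, against 2.91% of all genes on the lower side.

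The median log2 fold changes in Gas were -0.70 for complex I, -0.42 for complex II, -0.64 for complex III, -0.67 for complex IV, -0.63 for complex V and -0.36 for the assembly factors. They followed transcript length, at -0.72 for members under 1000 bases and -0.23 for those of 1500 bases or more, and so did all tested genes, at -0.47 and 0.06. Without WT Gas 3 the median over members was -0.11, and 0 members had an unadjusted p under 0.05. Without both WT Gas 3 and LSD1-mKO Gas 5 it was -0.30, and 30 members (of 92 tested) were lower at an unadjusted p under 0.05 against 5.83% of all genes. In those 6 libraries, 46 of 93 members were lower in every LSD1-mKO library than in both WT libraries, against 12.8% of all genes, and 1 was higher. Without LSD1-mKO Gas 5 alone 60 members were lower at an unadjusted p under 0.05 (9.05% of all genes) and the median was -0.81. Other libraries moved the count as well. It was 24 (5.21% of all genes; median -0.76) without WT Gas 1, 46 (6.76% of all genes; median -0.77) without WT Gas 2, 1 without LSD1-mKO Gas 1 and 0 without LSD1-mKO Gas 2, 3 or 4 (medians -0.60 to -0.52 without one of these 4). With offsets for transcript length and GC content the Gas median was -0.26 (75 below 0 and 17 above), and it was -0.15 (78 below 0) when the fit took the ribosomal protein level of each library. The summed level of the fast-fiber markers was 109536 to 136358 CPM in WT Gas and 77656 to 116139 CPM in LSD1-mKO Gas. Genes of this list went both ways. Pvalb was at 7286 to 24335 CPM in WT Gas and 3056 to 9820 in LSD1-mKO Gas. Actn3 was higher in LSD1-mKO Gas, at 14926 to 18810 CPM against 5623 to 14524 in WT Gas. The fibroblast markers summed to 1314 to 1827 CPM in WT Gas and to 812 to 1026 CPM in LSD1-mKO Gas, without overlap. Of their genes only Col1a2 did not overlap, and Col1a1, Col3a1, Dcn and Pdgfra did. In WT Gas 3 the sum rested on Dcn, at 1398 CPM, while Col1a1 was at 46.6. The adipocyte markers summed to 198 to 693 CPM in WT Gas and 127 to 269.6 in LSD1-mKO Gas. The part of these markers was not tested.

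The 4 members with the lowest p in Gas showed this dependence. Ndufa6, an accessory subunit of complex I, was at 306, 272 and 594 CPM in WT Gas and at 232, 187, 170.3, 186 and 345 CPM in LSD1-mKO Gas (log2 fold change ± SE -0.80 ± 0.31; adjusted p = 0.525). The LSD1-mKO library above the lower WT values was LSD1-mKO Gas 5, and the highest WT value came from WT Gas 3. Ndufs4, an accessory subunit needed for a stable complex I, was at 204, 197 and 491 CPM in WT and at 152, 147, 131, 142 and 265 CPM in LSD1-mKO (-0.83 ± 0.34; adjusted p = 0.541). Ndufaf5, a complex I assembly factor, was at 50.6, 36.5 and 89.6 CPM in WT and at 33.3, 29.5, 20.2, 31.8 and 54.7 CPM in LSD1-mKO (-0.79 ± 0.34; adjusted p = 0.548). Ndufa11, a membrane-arm subunit, was at 189, 169 and 484 CPM in WT and at 134, 119, 101, 129 and 262 CPM in LSD1-mKO (-0.91 ± 0.40; adjusted p = 0.548). In all 4 genes the 2 lower WT libraries lay above LSD1-mKO 1 to 4 and below LSD1-mKO 5.

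In Sol, again, no member passed the test. The smallest adjusted p was 0.103, and 129 of 13342 genes (0.967%) passed. Of the 93 members, 92 had a log2 fold change below 0 and the median was -0.42, against -0.01 over all genes. At an unadjusted p under 0.05, 39 members (41.9%) were lower in LSD1-mKO and none was higher, against 6.84% of all genes lower. In 16 members (17.2%) every LSD1-mKO Sol library lay below every WT Sol library, against 5.04% of all genes.

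The Sol medians were close to each other across the complexes, at -0.42 for complex I, -0.34 for complex II, -0.47 for complex III, -0.45 for complex IV, -0.37 for complex V and -0.33 for the assembly factors. Members under 1000 bases had a median of -0.45 and those of 1500 bases or more -0.34, where all tested genes had -0.19 and 0.01. Without WT Sol 2 the median over members was -0.13, 8 members were lower and 1 was higher at an unadjusted p under 0.05 (6.16% of all genes lower), and 17 were lower and 3 higher in every LSD1-mKO library than in the 2 WT libraries left (10.7% of all genes lower). The fast-fiber markers summed to 21875 to 35113 CPM in WT Sol and to 13362 to 26831 CPM in LSD1-mKO Sol. Here too the genes went both ways. Myh1 was at 6424 to 9183 CPM in WT Sol and 593 to 5582 in LSD1-mKO Sol, Actn3 at 68.3 to 646 and 520 to 1018. The adipocyte markers summed to 136 to 551 CPM in WT Sol and 99.5 to 217 in LSD1-mKO Sol. The part of the fast-fiber and adipocyte markers was not tested. With offsets for transcript length and GC content the median was -0.27 and 39 members had an unadjusted p under 0.05. When the fit took the ribosomal protein level of each library, the median was -0.38, with 92 members below 0. At an unadjusted p under 0.05, 57 were then lower. The share of all genes is not given for either setting.

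The 4 members with the lowest p in Sol had groups that did not overlap. Atp5s, a coupling factor related to ATP synthase, was at 16.1, 15.9 and 17.0 CPM in WT Sol and at 8.71, 12.1, 9.40, 8.76 and 13.2 CPM in LSD1-mKO Sol (-0.65 ± 0.17; adjusted p = 0.103). Atp5sl, which takes part in building the distal membrane arm of complex I, was at 68.3, 87.2 and 72.5 CPM in WT and at 37.8, 53.8, 48.7, 57.6 and 60.3 CPM in LSD1-mKO (-0.56 ± 0.16; adjusted p = 0.130). For both genes the WT libraries other than WT Sol 2 also lay above all 5 LSD1-mKO libraries. Ndufaf4, a complex I assembly factor, was at 88.5, 75.0 and 81.1 CPM in WT and at 58.4, 65.0, 51.8, 61.9 and 67.7 CPM in LSD1-mKO (-0.42 ± 0.13; adjusted p = 0.145), with its lowest WT value in WT Sol 2.

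Complex II was the one complex in which every subunit could be named with its values. Sdhc, which with Sdhd anchors the complex in the membrane, was at 435, 547 and 433 CPM in WT Sol and at 274, 358, 301, 354 and 375 CPM in LSD1-mKO Sol (-0.50 ± 0.16; adjusted p = 0.151), and the groups did not overlap. Sdha, the flavoprotein that oxidizes succinate, was at 1345, 1246 and 1312 CPM in WT Sol and at 859.5, 1155, 1078, 1069.6 and 1182 CPM in LSD1-mKO Sol (-0.28 ± 0.15; adjusted p = 0.420), again without overlap, and here WT Sol 2 was the lowest WT library. Sdhb had WT Sol values of 836, 1231 and 833 CPM and LSD1-mKO Sol values of 654, 835, 679.7, 696 and 822 CPM (-0.39 ± 0.18; adjusted p = 0.321), and Sdhd of 401, 464 and 367 against 323, 371, 295, 347 and 348 CPM (-0.29 ± 0.14; adjusted p = 0.359). For both, the highest LSD1-mKO library lay between the WT values. In Gas, Sdha was at 834, 841 and 651 CPM in WT and at 777, 824, 798, 797 and 846 CPM in LSD1-mKO, with a log2 fold change of 0.06 ± 0.18 that turned to -0.04 without WT Gas 3. The Gas log2 fold changes of Sdhb, Sdhc and Sdhd were -0.52 ± 0.34, -0.53 ± 0.26 and -0.31 ± 0.23.

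Chosen after their values were seen, the other Sol members without overlap were Ndufs1, Ndufs7 and Ndufs8, which are core subunits of complex I that hold iron-sulfur clusters, the accessory subunits Ndufb3 and Ndufb4, the complex I assembly factor Ndufaf1, Uqcrc1 and Uqcrfs1 of complex III (a core protein and the Rieske iron-sulfur protein), Cox4i1 and Cox7c of complex IV and Atp5a1, the alpha subunit of ATP synthase. Their log2 fold changes ran from -0.67 (Ndufs7) to -0.35 (Ndufs1). Uqcrc1 was at 1044, 1297 and 975 CPM in WT Sol and at 685, 871, 789, 712 and 889 CPM in LSD1-mKO Sol (-0.49 ± 0.16; adjusted p = 0.186). With DESeq2 in place of edgeR, Sdhc, Atp5s and Uqcrc1 passed in Sol. No share of all genes is given for DESeq2, so these calls do not set the members apart from all genes.

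**Figure D2:**
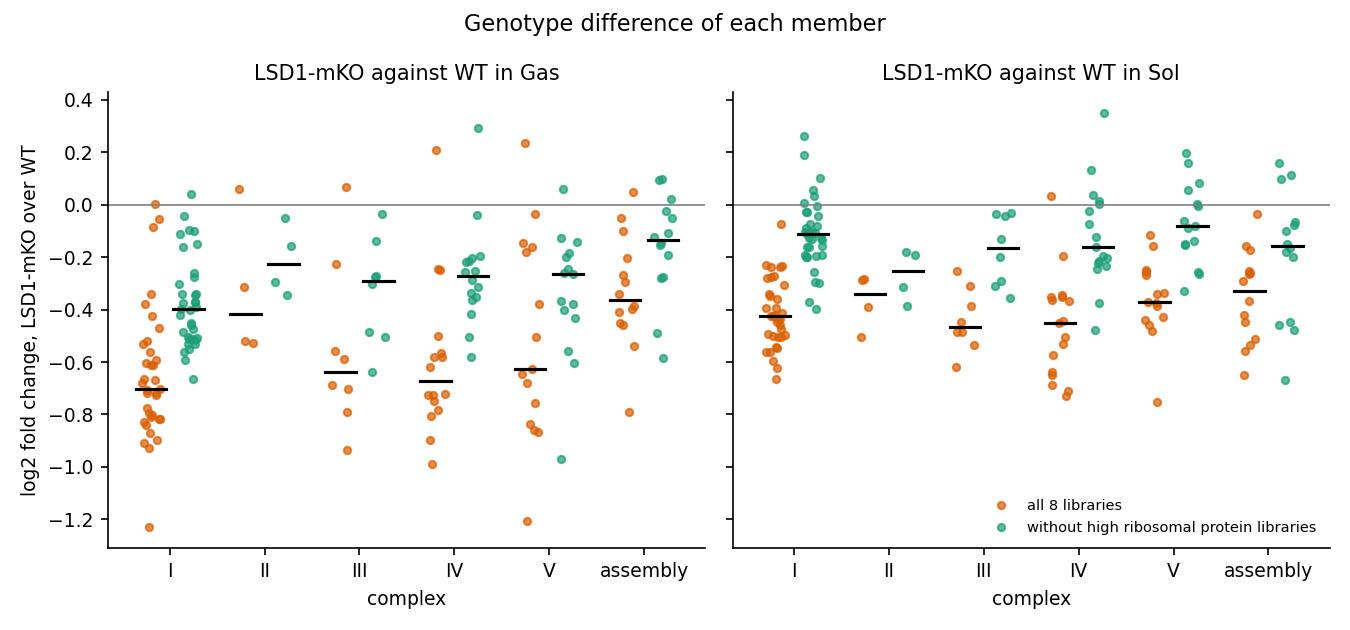
Log2 fold change (LSD1-mKO over WT, edgeR) of every member in Gas and Sol by complex, with all libraries and without the libraries with high ribosomal protein levels. The medians are -0.60 and, with those libraries left out, -0.30 in Gas, and -0.42 and -0.13 in Sol.

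A test of whether the genotype difference itself was unlike in the muscles was made as an interaction over all 16 libraries. By edgeR's quasi-likelihood test no gene of 13749 (0%) passed, members included, and while 671 genes (4.88%) had an unadjusted p under 0.05, 0 members did; DESeq2 called 0 members. The median interaction over members was 0.20 (log2, the Sol difference minus the Gas difference) and became -0.27 without WT Gas 3. Its sign thus turned on that library.

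The second question was how these genes differed between the slow and the fast muscle. Contrasts between muscles share libraries with the genotype contrasts, and the muscle cannot be told apart from the count table that held it. Beside fiber type, the summed brown adipocyte markers given above did not overlap between the muscles. That sum followed Cidea alone, at 1.98 to 8.44 CPM in Gas and 9.42 to 18.4 in Sol. Elovl3 overlapped between the muscles and Ucp1 was at 0 outside LSD1-mKO Sol, so the markers do not set them apart as a list. The endothelial sums reached 318 CPM in WT Gas and started at 324 CPM in LSD1-mKO Sol. Sums were scaled within each muscle, so a gap this small does not set the muscles apart. The part of these markers was not tested. In WT, 7 members were higher in Sol than in Gas, against 8.75% of all 13749 genes, and 4 were lower, against 8.25%. The median log2 fold change over members was -0.38, against -0.01 over all genes. In LSD1-mKO, 4 members were higher (12.9% of all genes) and 5 were lower (11.6%), with a median of -0.15. The share of members that passed was therefore near or below that of all genes in both genotypes. Same-numbered LSD1-mKO libraries of the 2 muscles deviated together, and with the replicate number as a block 2 were higher (Uqcrc2 and Ndufs1) and 3 lower (Ndufaf6, Atp5g2 and Sdhaf3). The share of all genes is not given with that block.

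The 7 members higher in WT Sol all had transcripts of 1500 bases or more. Uqcrc2, a core protein of complex III, was at 434, 446 and 324 CPM (scaled over the 16 libraries) in WT Gas and at 896, 762 and 789 CPM in WT Sol (1.02 ± 0.18; adjusted p = 0.000927). In LSD1-mKO it was at 444, 451, 404, 402 and 403 CPM in Gas and at 572, 744, 602, 782 and 749 CPM in Sol (0.71 ± 0.14; adjusted p = 0.00122). The muscles did not overlap in either genotype. Ndufs1, the largest core subunit of complex I, lay at 323, 330.1 and 311 CPM in WT Gas and rose to 635, 554 and 555 CPM in WT Sol (0.86 ± 0.17; adjusted p = 0.00197), and in LSD1-mKO from 328, 350.0, 297, 279.6 and 353 CPM to 383, 507, 418, 485 and 511 CPM (0.52 ± 0.13; adjusted p = 0.00693), also without overlap. Uqcrc2 and Ndufs1 passed in both genotypes under all 10 other settings and whichever of the 16 libraries was left out.

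The other 5 members higher in WT Sol, named after their values were seen, were Atp5a1, Atp5b, Sdha, Atp5sl and Sdhaf2, a complex II assembly factor. Atp5a1 was at 2499, 2494 and 2311 CPM in WT Gas and at 3805, 4057 and 3609 CPM in WT Sol (0.65 ± 0.18; adjusted p = 0.0204), and it also passed in LSD1-mKO (0.43 ± 0.14; adjusted p = 0.0336), as did Sdhaf2 (0.56 ± 0.16 in WT and 0.38 ± 0.12 in LSD1-mKO; adjusted p = 0.0203 and 0.031). Atp5b was at 3037, 3051 and 2280.2 CPM in WT Gas and at 4214, 4406 and 3885 CPM in WT Sol (0.58 ± 0.19; adjusted p = 0.0461). It passed in 2 of the 16 fits with a library left out and in 4 of the 10 other settings, and in LSD1-mKO its log2 fold change was 0.25 ± 0.15 (adjusted p = 0.240). Sdha was at 882, 883 and 694 CPM in WT Gas and at 1280.0, 1153 and 1241 CPM in WT Sol (0.58 ± 0.17; adjusted p = 0.0270), and in LSD1-mKO its log2 fold change was 0.25 ± 0.13 (adjusted p = 0.176). The interaction of genotype and muscle did not pass for any of these 5 (edgeR adjusted p = 0.987 for each).

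Of the 4 members lower in WT Sol, 3 had transcripts under 1000 bases. They were Ndufa3 and Ndufa7, accessory subunits of complex I, Atp5l, the g subunit of ATP synthase, and Ndufaf6, a complex I assembly factor. Ndufa3 was at 243, 193 and 600.2 CPM in WT Gas and at 109, 202 and 81.8 CPM in WT Sol (-1.40 ± 0.42; adjusted p = 0.0296), so that the muscles overlapped through WT Sol 2. In LSD1-mKO it was at 178, 139.8, 138, 145 and 321 CPM in Gas and at 73.9, 98.2, 92.7, 115 and 96.3 CPM in Sol (-0.96 ± 0.32; adjusted p = 0.0383), without overlap. Ndufaf6 was at 35.4, 30.2 and 63.5 CPM in WT Gas and at 17.4, 30.3 and 14.7 CPM in WT Sol (-1.05 ± 0.32; adjusted p = 0.0325). In LSD1-mKO it was at 42.0, 32.4, 23.9, 26.7 and 49.3 CPM in Gas and at 14, 15, 13, 17.2 and 17.8 CPM in Sol (-1.18 ± 0.25; adjusted p = 0.00215), where it passed under all 10 other settings. Atp5l was at 18.8, 16.7 and 28.8 CPM in WT Gas and at 7.27, 11.6 and 3.65 CPM in WT Sol (-1.51 ± 0.47; adjusted p = 0.0356), a low level for a subunit of every ATP synthase. Reads that map to several places were not counted, and their part in this level was not tested. Named likewise, the 5 members lower in LSD1-mKO Sol were Ndufaf6, Ndufa3, Uqcr11 (-0.92 ± 0.28), Atp5g2 (-0.75 ± 0.19) and Sdhaf3 (-0.56 ± 0.19).

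In complexes I, III, IV and V, the lowest muscle difference in WT belonged to a transcript that was highest in WT Gas 3. Ndufa2 (complex I) had a log2 fold change of -1.75 ± 0.61 (adjusted p = 0.0580), Uqcr11 (complex III) of -1.03 ± 0.36 (adjusted p = 0.0564), Cox7c (complex IV) of -1.02 ± 0.47 (adjusted p = 0.150) and Atp5e, the epsilon subunit of complex V, of -1.79 ± 0.63 (adjusted p = 0.0604). Atp5e was at 785, 653 and 3532 CPM in WT Gas and at 305, 805 and 333 CPM in WT Sol. The highest of each group was WT Gas 3 or WT Sol 2, so the spread between replicates was larger than the distance between the muscles in the other libraries. In complex II the lowest was Sdhd at 0.13 ± 0.21, and in complex IV the highest was Cox6b2 at 0.21 ± 0.51, which held 3 to 17 reads per library and had no stable sign.

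Transcript length and the muscle difference moved together. In WT the median log2 fold change, Sol over Gas, was -0.58 for members under 1000 bases, -0.17 for members of 1000 to 1500 bases and 0.18 for members of 1500 bases or more. All tested genes gave -0.65, -0.39 and 0.05. In LSD1-mKO the members gave -0.27, -0.05 and 0.15, and all tested genes -0.38, -0.20 and 0.04. With offsets for length and GC content, the median over members was 0.08 in WT and 0.09 in LSD1-mKO, with 22 members higher (9.7% of all genes) and 5 lower (9.66%) in WT and 17 higher (14.2%) and 6 lower (15.1%) in LSD1-mKO. When the fit took the mean ribosomal protein level of each library in place of those offsets, 36 members were higher (7.04% of all genes) and 0 lower (6.52%) in WT. In LSD1-mKO, 42 were higher (13.9%) and 1 lower (12.5%). The ribosomal protein level was itself tied to the muscle. Scaled over the 16 libraries, its mean log2 CPM was 6.73 to 8.15 in Gas and 6.06 to 6.90 in Sol. This fit therefore cannot tell that level from the muscle, and its counts are no measure of the muscle difference alone. Without WT Gas 3, 4 members were higher and 0 lower in WT (share of all genes not given), and the median was 0.10. Without all 3 libraries of high ribosomal protein level, 7 were higher (10.9% of all genes) and 18 lower (10.8%) in WT, with a median of -0.18, and 14 higher (15.8%) and 9 lower (15.5%) in LSD1-mKO, with a median of 0.06. The sign of the median muscle difference thus differed among these settings, whereas Uqcrc2 and Ndufs1 passed under every setting run.

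**Figure D3:**
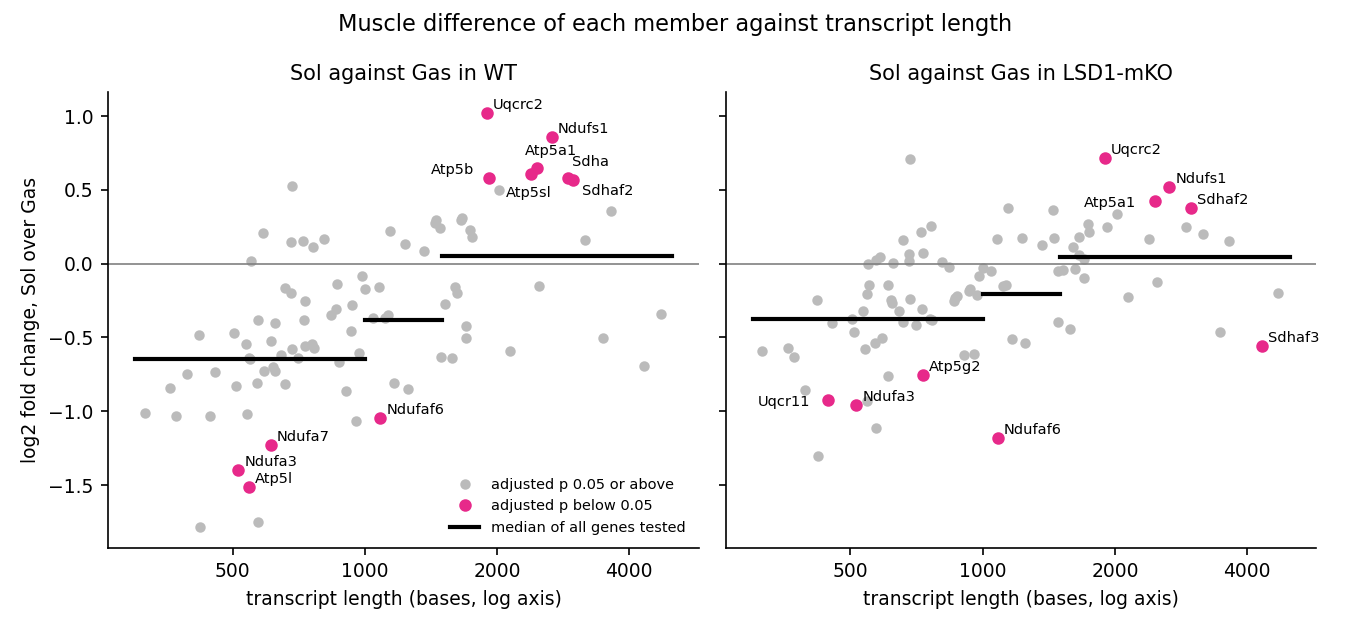
Log2 fold change between muscles (Sol over Gas) of each member against its transcript length in bases (log axis), in WT and in LSD1-mKO, with members that passed the test marked. All 7 members higher in WT Sol are 1500 bases or longer, and members under 1000 bases have a median of -0.58 in WT.

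Isoform shares were free of library size, since each is a share of the reads per kilobase of 1 pair or family within a library. Cox6a2 made up 90.1% to 96.1% of Cox6a reads per kilobase, and Cox8b, the muscle form of subunit VIII, 90.0% to 98.2% of Cox8 reads in all libraries. The non-muscle alternatives were low everywhere, with mean shares of 0.24% to 0.29% for Cox4i2, 0.13% to 0.22% for Cox6b2 and 1.34% to 1.48% for Ndufa4l2. All shares are of counted reads, without those that map to several places, whose part was not tested. None of the 32 comparisons of shares reached an adjusted p under 0.05 (exact permutation tests, two-sided), and the smallest adjusted p was 0.0847.

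Cox7a1, the muscle form of subunit VIIa, had a smaller share in every Sol library than in any Gas library of the same genotype. It took 77.8%, 79.3% and 78.3% of Cox7a reads per kilobase in WT Gas and 71.9%, 75.8% and 57.7% in WT Sol, a difference of -9.99 percentage points (exact permutation p = 0.1, the smallest that 3 against 3 libraries allow). In LSD1-mKO it took 78.0%, 77.6%, 76.7%, 74.2% and 78.8% in Gas and 60.8%, 63.6%, 60.9%, 69.4% and 59.7% in Sol, a difference of -14.2 points (exact permutation p = 0.00794, the smallest that 5 against 5 allow; adjusted p = 0.0847). Taken as the 5 same-numbered pairs, the exact permutation p was 0.0625, the smallest that 5 pairs allow, and the adjusted p was 0.381. WT Gas 3 lay between the other WT Gas libraries, and WT Sol 2 had the highest share in Sol. Between genotypes, the mean difference was -1.43 points in Gas and -5.61 in Sol, and the groups overlapped in both.

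Cox8b had a smaller share in every LSD1-mKO Sol library than in any WT Sol library. The shares were 94.2%, 95.8% and 93.9% in WT Sol and 90.0%, 92.1%, 92.6%, 92.9% and 92.8% in LSD1-mKO Sol, a difference of -2.54 points without overlap (exact permutation p = 0.0357, the smallest that 3 against 5 allow; adjusted p = 0.286). The libraries with the highest ribosomal protein level had the highest Cox8b share of their group, at 98.2% (WT Gas 3), 96.7% (LSD1-mKO Gas 5) and 95.8% (WT Sol 2), and Cox8b is, at 360 bases, the shortest complex IV transcript here. Among the 3 genes for the c subunit of ATP synthase, Atp5g3 took 85.0%, 85.4% and 88.1% in WT Gas and 91.1%, 89.2% and 91.3% in WT Sol, and in LSD1-mKO 83.4% to 85.6% in Gas and 88.1% to 89.7% in Sol (exact permutation p = 0.1 in WT and 0.00794 in LSD1-mKO; adjusted p = 0.0847 in LSD1-mKO, or 0.381 as 5 pairs). The muscles did not overlap in either genotype. The share of Atp5g1 was lower in Sol, with means of 9.58% in WT Gas and 6.97% in WT Sol, and its transcript length was taken as 4715 bases, which lowers its level per kilobase.

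**Figure D4:**
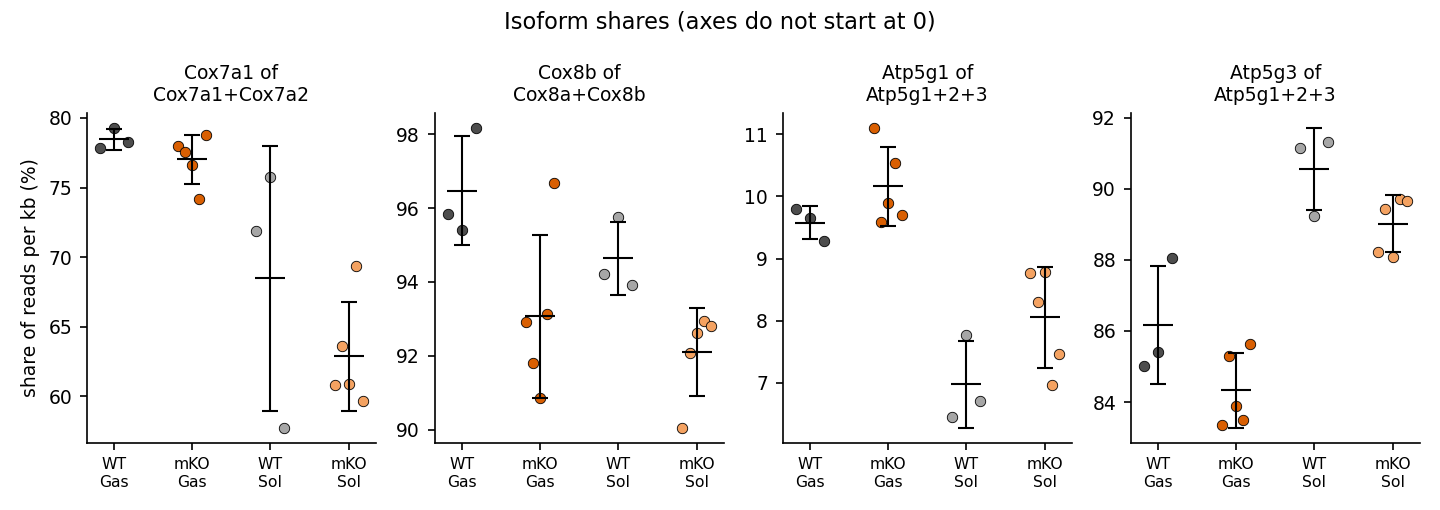
Share (percent of reads per kilobase of the pair or family) of Cox7a1, Cox8b, Atp5g1 and Atp5g3 in each library, by group, with group means. Cox7a1 lies at 74.2% to 79.3% in Gas and 57.7% to 75.8% in Sol, while Cox8b stays at 90.0% or more.

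The pathway holds genes outside the name rule, among them cytochrome c and factors that insert copper and heme into complex IV. Of 43 such genes, 41 were tested. None passed in the genotype comparisons, where 30 of 41 had a log2 fold change below 0 in Gas (median -0.18) and 32 of 41 in Sol (median -0.20). Between muscles, 5 were higher and 5 lower in WT Sol, and 5 higher and 7 lower in LSD1-mKO Sol, shares of 12.2% and 12.2%, and of 12.2% and 17.1%, beside 8.75% and 8.25%, and 12.9% and 11.6%, of all genes. Coa5, Cox19 and Lyrm7 were higher in Sol in both genotypes, and Uqcc2, Atpif1 and Pet100 lower in both.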

How the data were processed

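Poly(A) RNA of 16 libraries was read from 1 end for 75 bp. Alignment by the authors used STAR and mm10, and the deposited values, 1 table per muscle, are raw counts per gene from featureCounts 1.5.2 per the file headers. Reads that map to several places were not counted, no strand option was named, and the deposited comparison tables (fold changes and p-values) were not used. No column of another sample was present, and no pair of libraries was identical.

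Each muscle was fitted with edgeR 4.0.16 in R 4.3.3 (filterByExpr, TMM, quasi-likelihood F-test, two-sided, Benjamini-Hochberg over all genes tested); contrasts between muscles and the interaction used 1 fit of all 16 libraries with 4 groups. The SE of a log2 fold change was taken as its size over the root of F. Alternatives used DESeq2 1.42.0, other scalings and filters, covariates and left-out libraries. Isoform shares were compared by exact permutation tests (scipy 1.17.1), adjusted over 32 tests. Transcript lengths, found for all 93 members, are those of the longest transcript with a RefSeq match (otherwise the longest) in GENCODE vM21, and promoter windows are from RefSeq. The fits were tested on simulated counts with 200 changed genes. For a log2 fold of 1, calls were recovered for 17.3% of changed genes in Gas, 55.1% in Sol, 13.1% for the interaction, 35.4% between WT muscles and 63.0% between LSD1-mKO muscles. The libraries are separate samples per the labels, so p-values measure the spread between these samples. The labels gave no batch.

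Members with values in the text were the 4 with the lowest p in each genotype comparison, the listed isoform families, the Sdh subunits and, per complex, the highest level and the largest and smallest muscle difference in WT. The members and lists were chosen with earlier results of these data known. Same-numbered libraries were compared by the correlation of their deviations from the group means. It was 0.243 to 0.390 for the 5 LSD1-mKO Gas and Sol numbers, which pair the samples by the limit of 0.1 used. The fits and tests above have no block, and the blocked values are given beside them. It was under 0.1 for at least 1 number in the other group pairs.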

Additional observations from a re-analysis of the deposited data

Results flagged for a closer look

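Of 102 groups of 5 LSD1-mKO libraries examined, over the levels of the complexes, the isoform shares and the CPM of the genes named, 11 held a library whose distance to its nearest neighbor, as a share of the range of the group, was above the critical value of 0.71; chance gives about 1 in 20. In LSD1-mKO Gas, LSD1-mKO Gas 5 was the highest library for Ndufs4 (share of the range 0.848), Cox4i1 (0.823), Ndufa11 (0.797), Atp5e (0.79), Cox8b (0.79), Ndufa2 (0.779), Cox6a1 (0.75), Cox6b1 (0.747) and Uqcrh (0.711). In CPM, Cox4i1 was at 1688 there and at 706 to 880.2 in the other 4 libraries. In LSD1-mKO Sol, LSD1-mKO Sol 1 was the lowest library for Uqcr11 (0.735) and Cox6a2 (0.733). LSD1-mKO Gas 5 was also the library with the highest ribosomal protein level of its group, and its part in these values was not tested.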

How the results depend on the processing

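With the genotype comparisons, no member passed in Gas under any setting run. In Sol the number of members that passed, lower in LSD1-mKO, went from 0 to 3 with DESeq2 (Sdhc, Atp5s and Uqcrc1), 1 with edgeR's exact test (Atp5s) and 1 with a ribosomal protein covariate (Ndufs7); the cause was not tested. At an unadjusted p under 0.05, the 5 lower members in Gas became 21 with no filter, 20 with DESeq2, 24 with the exact test, 14 with length and GC offsets, 30 without the high ribosomal protein libraries, 44 in 1 fit of 16 libraries and 0 to 60 with a library left out. The 39 in Sol became 57 with the ribosomal protein covariate, 10 in 1 fit of 16 libraries and 8 to 59 with a library left out. For the interaction, 0 members became 7 without the high ribosomal protein libraries. For most settings of this section the share of all genes is not given, so a count alone does not set the members apart from all genes. The median log2 fold change over members in Sol was -0.13 with the high ribosomal protein library left out and -0.54 to -0.13 with each library left out in turn. The median interaction was -0.21 with the ribosomal protein covariate and -0.27 to 0.44 with a library left out. Between WT muscles, the 7 higher and 4 lower members became 11 and 2 with scaling to total counts (chosen after seeing the data), 8 lower with DESeq2, 36 and 0 with the ribosomal protein covariate (median 0.60), 22 higher with length and GC offsets (median 0.079), 18 lower without the high ribosomal protein libraries, 2 and 0 in WT libraries only, and 3 to 8 higher and 0 to 19 lower with a library left out (median -0.64 to 0.10; lower 0 without WT Gas 3, WT Sol 1 or WT Sol 3, 7 without LSD1-mKO Gas 5, 8 without WT Gas 2 and 19 without WT Sol 2; higher 4 without WT Gas 3 and 3 without WT Sol 1). Between LSD1-mKO muscles, the 4 higher and 5 lower became 7 higher with total counts, 2 higher with no filter, 9 lower with DESeq2, 42 and 1 with the ribosomal protein covariate (median 0.39), 17 higher with length and GC offsets, 14 and 9 without the high ribosomal protein libraries, 10 lower in LSD1-mKO libraries only, and 2 to 4 higher and 2 to 11 lower with a library left out (lower 2 without LSD1-mKO Gas 5, 3 without LSD1-mKO Gas 1 or Sol 1, 2 or 3, 8 without LSD1-mKO Gas 3 and 11 without WT Gas 3; higher 2 without LSD1-mKO Gas 2, 3 or 4 or Sol 2, 4 or 5). Scaling to total counts moved the median log2 fold change of all genes by 0.16 in the Gas genotype comparison, -0.12 in the interaction, 0.23 between WT muscles and 0.11 between LSD1-mKO muscles, where TMM puts it near 0. Because the ribosomal protein level differed between the muscles, muscle contrasts with that covariate cannot tell the level from the muscle.

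With the replicate number as a block, 1 member passed in Sol (Ndufaf1), 2 were lower between WT muscles, and 2 were higher and 3 lower between LSD1-mKO muscles, the last being the comparison whose numbers pair the samples; in the others the libraries share only a number. An exact test of the LSD1-mKO isoform shares as 5 pairs, chosen after seeing the data, put 0 past the threshold, as did the test without pairs.

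Single genes turned in direction in few settings. Sdha in Gas was at -0.051 without the high ribosomal protein libraries and at -0.039 (without WT Gas 3) to 0.14 with a library left out. With the ribosomal protein covariate, the muscle difference was 0.51 in WT and 0.23 in LSD1-mKO for Ndufa2, 0.76 and 0.38 for Cox7c, 0.45 and 0.095 for Atp5e, and 0.11 in WT for Ndufa7. With a library left out, Cox7c in WT was at -1.33 to 0.033 (the last without WT Gas 3), and Cox6b2 at -0.16 to 0.66 in WT and -0.15 to 0.18 in LSD1-mKO; at 3 to 17 reads per library, depth limits what can be said of Cox6b2. The summed levels of the complexes moved when scaled by TMM. For the Gas genotype, the WT muscles and the LSD1-mKO muscles, the difference of the mean log2 levels was then -0.64, -0.50 and -0.21 for complex I. It was -0.33, 0.31 and 0.30 for complex II (-0.34 for the Sol genotype), -0.59, -0.30 and -0.10 for complex III and -0.60, -0.42 and -0.23 for complex IV. It was -0.53, -0.25 and -0.044 for complex V, -0.36, -0.020 and 0.0024 for the assembly factors and -0.58, -0.35 and -0.14 for all members. Of the counts, medians and sums under other settings, 366 stayed near the value given and 76 did not.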
